A study of Mus musculus with 25 samples.

Results

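MHC class I genes encode the heavy chains that carry peptides to the cell surface, and 10 genes of this pathway were followed in mouse hypothalamus: the heavy chain genes H2-K1, H2-D1, H2-T22, H2-T23, H2-Q4 and H2-Q7, the related gene H2-Bl, the light chain gene B2m, and the transporter genes Tap1 and Tap2. They were chosen by symbol, and all 10 were listed among 24421 gene symbols. The set was drawn up because H2-Bl was lower in 1 of 4 comparisons of maternal diet, that of females weaned onto regular diet, so in that comparison the values of all members are given as a description, without a test. The question put to the data was whether the close relatives of H2-Bl moved the opposite way.

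The study sequenced poly(A) RNA of whole hypothalamus in 25 samples from wild-type C57BL/6J mice aged 3 months. Dams ate a hypercaloric diet (HCD, TD.04059.PWD, 52% fat and high in sucrose) or regular diet (RD) for 1 month before mating and through pregnancy and lactation, and the offspring were weaned onto HCD or RD. Group names give the dam's diet first and the weaning diet second: HCD-HCD, RD-HCD and HCD-RD had 3 male and 3 female samples each, and RD-RD had 4 male and 3 female samples. Each of the 4 comparisons set offspring of HCD dams against offspring of RD dams within 1 sex and 1 weaning diet, and no sample was shared between comparisons. All mice were of 1 inbred strain, which is also the strain of the reference genome. Nothing in the labels tells whether mice of 1 group were littermates, and the p-values therefore cover only the spread among the sequenced samples.

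The values below come from the authors' deposited tables of these 4 comparisons, which give for each gene a mean normalized count over both diet groups, a log2 fold change with its standard error (SE), and p-values from DESeq. Values of single mice are not given, because the library columns could not be tied to samples. Positive log2 fold changes are taken to mean a higher level with HCD dams. The labels give this direction for HCD-weaned mice. In RD-weaned mice only the order of the group names supports it, and an error there would turn every sign of those tables. A gene passed the test when its DESeq adjusted p over all tested genes was under 0.05. In whole tissue, fewer cells of a type and less RNA per cell cannot be told apart.

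In a cell, proteasomes cut proteins into peptides, the Tap1-Tap2 transporter moves them into the endoplasmic reticulum, and they are loaded there onto a heavy chain paired with beta-2 microglobulin, the product of B2m. H2-K1 and H2-D1 are the classical heavy chains, recognised by CD8 T cells, while H2-T23 (Qa-1), H2-T22, H2-Q4 and H2-Q7 (Qa-2) are nonclassical, with roles in signalling to natural killer cells or to particular T cells. In brain, classical class I molecules are found on endothelium and microglia and also on some neurons, where they have been tied to the pruning and plasticity of synapses. Interferons raise the transcription of most of these genes.

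H2-Bl differs from the other heavy chain genes in its annotation. It lies at chr17:36080115-36084223 on the minus strand (GRCm38, the same assembly as mm10) and is a polymorphic pseudogene in GENCODE M21, whereas the 6 heavy chain genes, B2m, Tap1 and Tap2 are protein coding. All members except B2m, which is on chromosome 2, lie on chromosome 17. Exon 4 of the class I genes encodes the alpha 3 domain, the part of the heavy chain that contacts CD8. It is shown here for H2-Bl and 4 relatives because it holds both a likeness that can make reads hard to assign and the base that gives H2-Bl a stop codon. Each sequence is the 276-base exon 4 of 1 GENCODE M21 transcript, 5′ to 3′ on the gene's own strand, and capitals mark bases that differ from H2-Bl. The exons lie at chr17:36081242-36081517 (minus strand) for H2-Bl, chr17:33997285-33997560 (minus) for H2-K1, chr17:35265784-35266059 (plus) for H2-D1, chr17:36030822-36031097 (minus) for H2-T23 and chr17:36040478-36040753 (minus) for H2-T22.
H2-Bl: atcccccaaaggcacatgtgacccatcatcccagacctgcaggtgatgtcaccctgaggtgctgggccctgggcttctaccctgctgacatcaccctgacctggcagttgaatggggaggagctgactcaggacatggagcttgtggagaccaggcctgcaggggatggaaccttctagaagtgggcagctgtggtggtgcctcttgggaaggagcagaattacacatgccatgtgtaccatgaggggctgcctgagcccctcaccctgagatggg
H2-K1: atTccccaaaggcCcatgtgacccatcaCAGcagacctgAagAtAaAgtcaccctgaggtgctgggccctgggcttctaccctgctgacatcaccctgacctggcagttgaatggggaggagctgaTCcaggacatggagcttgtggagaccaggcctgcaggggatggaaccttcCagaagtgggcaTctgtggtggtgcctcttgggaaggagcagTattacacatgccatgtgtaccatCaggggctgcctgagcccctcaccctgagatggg
H2-D1: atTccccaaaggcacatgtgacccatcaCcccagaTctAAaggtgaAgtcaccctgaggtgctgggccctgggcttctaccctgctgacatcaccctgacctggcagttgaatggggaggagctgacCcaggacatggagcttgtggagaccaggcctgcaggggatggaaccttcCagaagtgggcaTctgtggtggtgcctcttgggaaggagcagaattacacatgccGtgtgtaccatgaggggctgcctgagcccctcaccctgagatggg
H2-T23: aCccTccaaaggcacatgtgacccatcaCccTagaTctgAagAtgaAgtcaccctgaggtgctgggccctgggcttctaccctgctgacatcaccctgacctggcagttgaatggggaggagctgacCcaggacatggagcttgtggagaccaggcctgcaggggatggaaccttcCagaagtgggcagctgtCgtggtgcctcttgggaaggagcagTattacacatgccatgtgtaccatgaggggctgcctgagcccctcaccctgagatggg
H2-T22: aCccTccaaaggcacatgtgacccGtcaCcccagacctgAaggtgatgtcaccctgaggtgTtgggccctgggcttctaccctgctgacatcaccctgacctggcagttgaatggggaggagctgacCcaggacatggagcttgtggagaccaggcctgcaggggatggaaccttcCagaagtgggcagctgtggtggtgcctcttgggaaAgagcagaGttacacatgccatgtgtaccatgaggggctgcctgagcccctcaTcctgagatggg
Exon 4 of H2-Bl was identical at 96.4% of bases to that of H2-D1, at 96.0% to H2-T22, at 95.7% to H2-T23, at 95.3% to H2-Q7, at 94.6% to H2-K1 and at 94.2% to H2-Q4. Its longest unbroken run shared with a relative was 80 bases, with H2-D1 and with H2-T23. In the reading frame of the annotation, H2-Bl had 1 stop codon in this exon, TAG, starting at position 177 counted from the exon's first base. The 6 relatives had CAG there and no stop codon in the exon, a change written C177T with the base of the relatives first.

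Because class I genes are so alike, the share of each transcript that another annotated gene also holds was measured. Windows of 50 bases were looked up in the transcripts of all other genes, then windows of 100 bases. For H2-Bl 11.8% of 50-base windows and 0.385% of 100-base windows were also found elsewhere, for H2-K1 8.79% and 0%, and for H2-D1 14.3% and 4.64%. The nonclassical genes shared more: H2-T22 44.7% and 14.2%, H2-Q4 39.2% and 13.9%, H2-Q7 34.9% and 16.4%, and H2-T23 29.8% and 7.28%. The gene that shared most with H2-T22 was H2-T10, at 37.9% of 50-base windows, and for H2-Q7 it was H2-Q6, at 19.3%. For H2-Q4 it was Gm11131, at 16.1%, and only 6.14% of its 50-base windows lay in another member. At 100 bases no H2-Q4 window lay in another member, while Olfr204 held 1.71% and Cd200r3 1.65%. No window of B2m was found in another gene, while those of Tap1 (6.47% at 50 bases) lay mostly in its neighbour Psmb9 and those of Tap2 (12.6%) mostly in Gm15821. The treatment of reads that match several genes is not given in the sources used here, nor is the use, in counting, of the strand that the library kit marks. Values of H2-T22, H2-Q4, H2-Q7 and H2-T23 are therefore uncertain in so far as reads were split or left out.

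**Figure D1:**
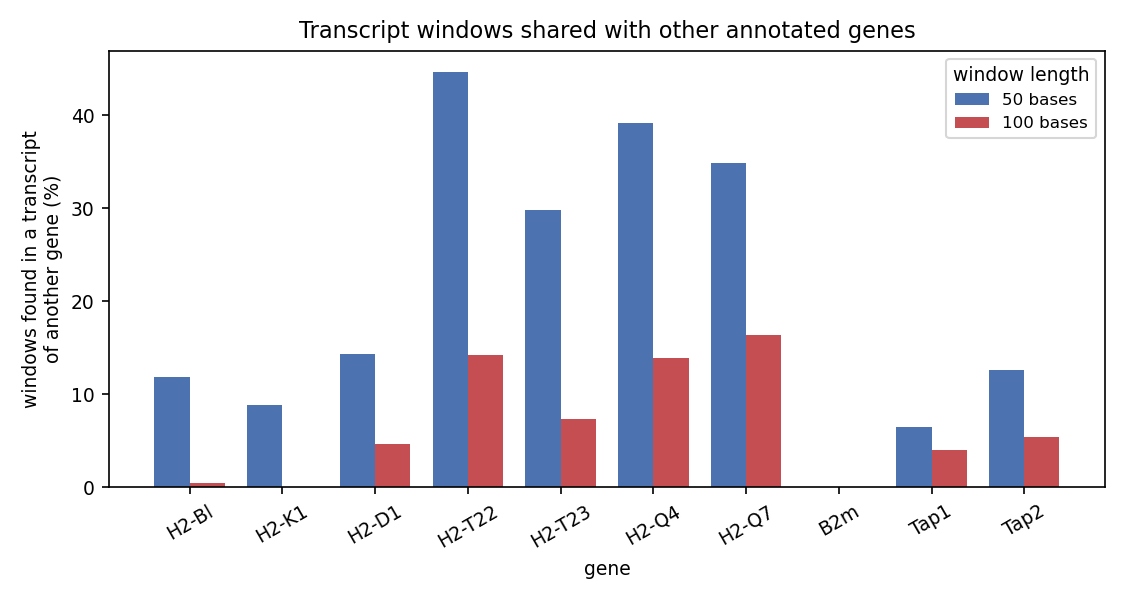
Share of windows of each gene's transcript (y axis, percent) that also occur in a transcript of another annotated gene, for windows of 50 bases (blue) and 100 bases (red) and each of the 10 genes (x axis). The bars of H2-T22, H2-Q4, H2-Q7 and H2-T23 are the tallest at 50 bases, from 29.8% to 44.7%, and B2m has none.

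The light chain had the highest level, followed by the 2 classical heavy chains and H2-T23. Levels are given as mean normalized counts per 1000000 of the table's total (CPM) and per kilobase of exon, computed from the authors' deposited tables, which were normalized separately. Exon length is that of all GENCODE M21 exons of a gene merged. It was 2889 bases for H2-T23 and 2579 for H2-D1, against 1472 and 2102 for the transcripts searched above. The order of members with near levels thus depends on the length taken. B2m stood far above the rest at 121.5 to 168.8 over the 4 deposited tables of the authors. H2-K1 came next at 17.8 to 21.9, and its range did not meet that of H2-D1, 7.53 to 13.1, in the authors' deposited tables. H2-D1 and H2-T23 (7.09 to 9.60) overlapped over the authors' deposited tables. So did Tap2 (3.10 to 5.34) and H2-Q4 (2.89 to 4.50), and H2-Bl (0.465 to 2.20) and Tap1 (0.833 to 1.17), in the authors' deposited tables. H2-T22 was listed at only 0.0119 to 0.0343, with mean normalized counts of 0.954 to 3.16 in the authors' deposited tables. H2-Q7 was listed at 0 in all 4, as were H2-Q6, H2-Q8, H2-Q9 and H2-T9 in the authors' deposited tables. H2-Bl varied most among the tested members: in CPM, its highest table mean was 4.74 times its lowest, against 1.23 to 1.74 times for the other tested members in the authors' deposited tables. Spread between mice within a group could not be set beside these levels.

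**Figure D2:**
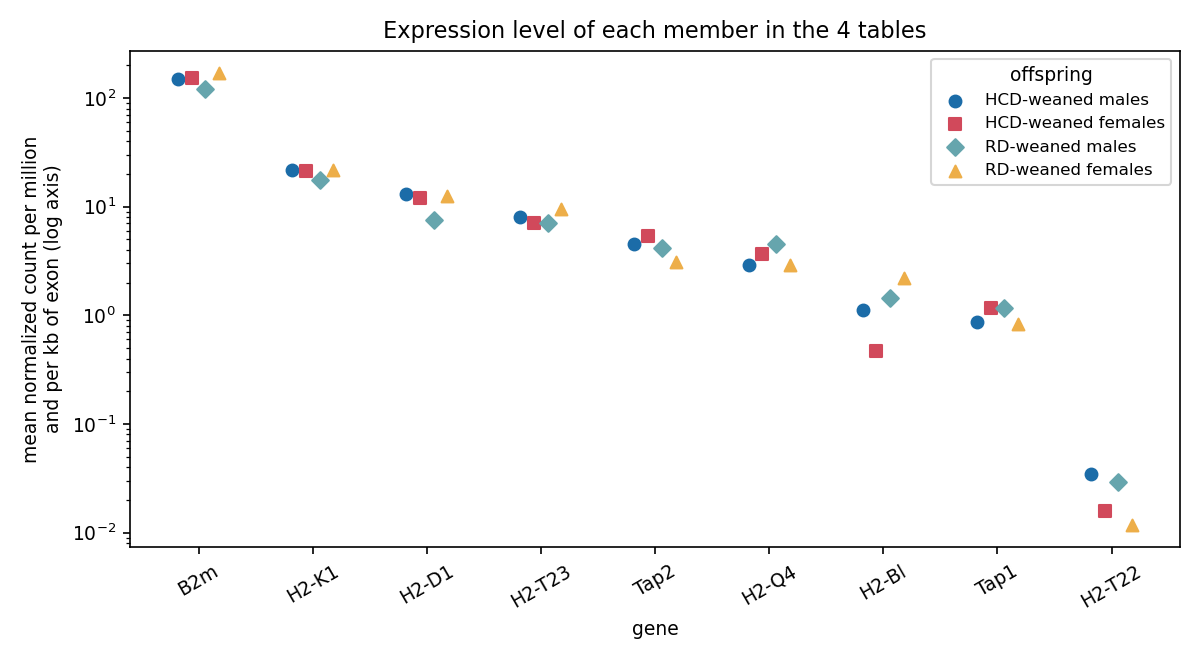
Mean normalized count as CPM per kilobase of exon (y axis, log scale) of 9 members (x axis, from highest to lowest) in the authors' 4 deposited tables, 1 point per table with no error bar, since values of single mice are not used. B2m lies above all others in each table and H2-T22 below; H2-Q7, listed at 0, is not drawn.

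H2-Bl, named after the blastocyst, was lowest relative to RD dams in the RD-weaned females from which the set was chosen. Its log2 fold change there was -1.77 ± 0.29 (SE), a 3.40-fold lower level in offspring of HCD dams, at a mean normalized count of 87.3 in the authors' deposited table. In HCD-weaned males it was -0.61 ± 0.33 at a mean of 50.5, 1.53-fold lower, with an unadjusted p of 0.0607 and a DESeq adjusted p of 0.628, per the authors' deposited table. In HCD-weaned females the value was 0.00 ± 0.33 (DESeq adjusted p = 1.00), at a mean of 17.8 in the authors' deposited table. RD-weaned males had 0.04 ± 0.31 at a mean of 37.4, with no p-value listed, per the authors' deposited table. So the low value of the RD-weaned females was not met again at the threshold in the other 2 comparisons that test the gene. Whether a single library carried that low value was not checked. The change of H2-Bl did not differ between HCD-weaned males and HCD-weaned females beyond its error: the male minus female difference, computed from the authors' deposited tables, was -0.61 (95% interval -1.52 to 0.31, adjusted p = 1.00). At the low mean of 17.8 the fold in HCD-weaned females may be understated, so this interval is approximate.

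**Figure D3:**
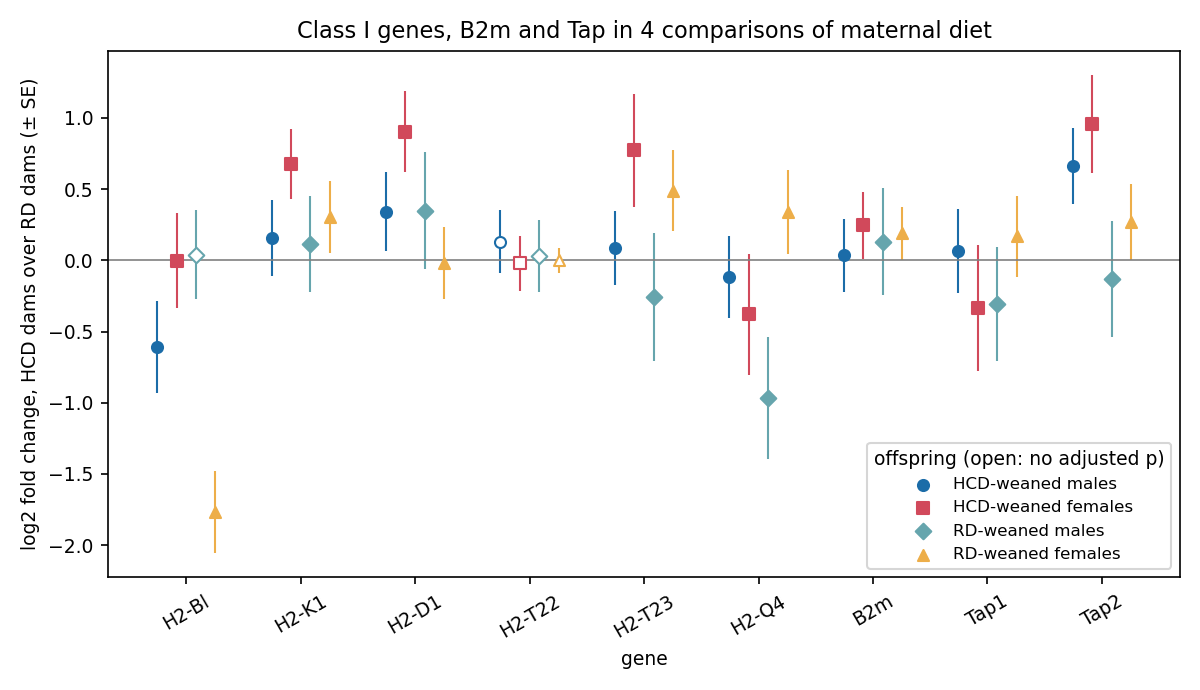
Log2 fold change in offspring of HCD dams over offspring of RD dams (y axis; bars, ± 1 SE) for 9 members (x axis) in 4 comparisons (symbols and colours), from the authors' deposited tables; open symbols have no adjusted p, and H2-Q7, listed at 0, is not drawn. H2-Bl in RD-weaned females, at -1.77, lies below all other points, and in HCD-weaned females H2-K1, H2-D1, H2-T23 and Tap2 lie at 0.67 or above.

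In those RD-weaned females the relatives of H2-Bl lay on either side of 0, mostly above it. H2-T23 was at 0.49 ± 0.29, H2-Q4 at 0.34 ± 0.30, H2-K1 at 0.30 ± 0.25 and H2-D1 at -0.02 ± 0.25 in the authors' deposited table. Tap2 was at 0.27 ± 0.27, B2m at 0.19 ± 0.18 and Tap1 at 0.17 ± 0.28 in the authors' deposited table. Of the 8 members with an adjusted p, 1 passed the test (H2-Bl, lower), while 0.346% of 15028 genes did, 0.226% as lower, in the authors' deposited table. As this comparison chose the set, nothing is read from that count. Among the 7 others, 6 had a positive sign and their median was 0.27, against 0.01 over all genes tested in the authors' deposited table. The largest of those 7 values, that of H2-T23, was 1.40-fold, well short in size of the 3.40-fold of H2-Bl in the authors' deposited table.

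The classical heavy chains and Tap2 had their largest positive values in HCD-weaned females, although none passed the test. H2-D1 was 1.87-fold higher (log2 0.90 ± 0.28, unadjusted p = 0.00152, DESeq adjusted p = 0.0711) in the authors' deposited table. H2-K1 was 1.60-fold higher (0.67 ± 0.24), with a DESeq adjusted p of 0.139, per the authors' deposited table. Tap2, the transporter subunit, was 1.94-fold higher (0.96 ± 0.35, DESeq adjusted p = 0.139), per the authors' deposited table. The nonclassical H2-T23 was at 0.77 ± 0.39, with a DESeq adjusted p of 0.376, per the authors' deposited table. B2m, whose product pairs with class I heavy chains, was at 0.25 ± 0.24 in the authors' deposited table. On the other side of 0 lay H2-Q4 at -0.38 ± 0.42 and Tap1, the partner of Tap2, at -0.33 ± 0.44 in the authors' deposited table. Thus 0 of 8 tested members passed, against 1.52% of 15043 genes, and 3 of 8 had an unadjusted p under 0.05, against 13.3% of all genes, in the authors' deposited table. The members' median was 0.46 and that of all genes 0.04 in the authors' deposited table. Microglial markers leaned the same way in this comparison: 8 of 10 were positive, with a median of 0.35 and none past the test, in the authors' deposited table. Endothelial markers had 6 of 10 positive and a median of 0.06, none past the test in the authors' deposited table. Of 7 tested hypothalamic neuron markers 6 were negative with a median of -0.43, and Avp (-1.50 ± 0.45, DESeq adjusted p = 0.0513) was nearest to the threshold, per the authors' deposited table. The part of these cells in the class I values was not tested.

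In HCD-weaned males Tap2 was again the highest member. It was 1.58-fold higher (0.66 ± 0.27, unadjusted p = 0.0140, DESeq adjusted p = 0.509) in the authors' deposited table. H2-D1 was at 0.34 ± 0.28 and H2-K1 at 0.16 ± 0.27 in the authors' deposited table. H2-T23 (0.09 ± 0.26), Tap1 (0.06 ± 0.29), B2m (0.04 ± 0.26) and H2-Q4 (-0.12 ± 0.29) lay within 1 SE of 0 in the authors' deposited table. None of the 8 tested members passed, against 0.163% of 15384 genes, and Tap2 alone had an unadjusted p under 0.05, against 8.14% of all genes, in the authors' deposited table. Leaving H2-Bl aside, 6 of 7 were positive with a median of 0.09, against -0.01 over all genes in the authors' deposited table. Hypothalamic neuron markers fell in the same comparison, 5 of 10 past the test: Oxt (-2.27 ± 0.31), Pmch (-1.93 ± 0.30), Hcrt (-1.73 ± 0.32), Fezf1 (-1.55 ± 0.32) and Sim1 (-1.37 ± 0.32) in the authors' deposited table. All 10 were negative, with a median of -1.29 in the authors' deposited table. The part of these cells in the -0.61 of H2-Bl was not tested.

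RD-weaned males had H2-Q4 as their lowest member. Library files of this comparison have 6 columns for the 7 samples in the labels, so it is unknown which samples entered. It was 1.96-fold lower (-0.97 ± 0.43, unadjusted p = 0.0236, DESeq adjusted p = 0.989) in the authors' deposited table. H2-D1 was at 0.35 ± 0.41, B2m at 0.13 ± 0.37 and H2-K1 at 0.11 ± 0.33 in the authors' deposited table. Tap1 (-0.31 ± 0.40), H2-T23 (-0.26 ± 0.45) and Tap2 (-0.13 ± 0.41) were on the other side of 0 in the authors' deposited table. Here 0 of 7 tested members passed, against 0.0851% of 12920 genes, and 1 of 7 had an unadjusted p under 0.05, against 4.30% of all genes, in the authors' deposited table. The median of the 7 was -0.13, against 0.00 over all genes in the authors' deposited table. This comparison had the fewest counts: the mean normalized counts summed to 15402649, against 22739667 to 26951335 in the other authors' deposited tables.

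Whether maternal diet acted differently on a member between comparisons was tested for the 3 pairs of comparisons that leave out the RD-weaned females. No member passed in any pair, and of all genes 0% (of 14947) passed for HCD-weaned males against HCD-weaned females, 0.00775% (of 12910) for HCD-weaned against RD-weaned males, and 0.00777% (of 12871) for HCD-weaned females against RD-weaned males. The last pair differs in sex and in weaning diet at once, which cannot be told apart there. As the signs are read here, Tap2 in HCD-weaned females minus RD-weaned males was at 1.09 on the log2 scale (95% interval 0.04 to 2.13, unadjusted p = 0.0413, adjusted p = 0.826), computed from the authors' deposited tables. For H2-T23 the same difference was 1.03 (-0.14 to 2.21), and for H2-D1 it was 0.55 (-0.43 to 1.53), from the authors' deposited tables. With the signs of the RD-weaned male table turned, it was 0.83 for Tap2, 0.51 for H2-T23, 1.25 (0.27 to 2.23, adjusted p = 0.364) for H2-D1 and -1.35 (-2.53 to -0.17, adjusted p = 0.481) for H2-Q4, from the authors' deposited tables. H2-Q4 had 0.59 (-0.59 to 1.77) as read here, so the order of the members and the direction for H2-Q4 depend on that reading of the authors' deposited tables. Between HCD-weaned females and HCD-weaned males, the male minus female difference was -0.56 (-1.34 to 0.22) for H2-D1 and -0.52 (-1.23 to 0.19) for H2-K1, from the authors' deposited tables. Intervals of this width include both no difference and differences of over 2-fold for H2-D1 and H2-K1, so at this number of samples the effects were not shown to be alike.

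The genes around H2-Bl were read next, since they share its stretch of chromosome 17. GENCODE M21 lists 53 other genes that start within 200 kb of H2-Bl, of which 24 are in the authors' deposited tables. In RD-weaned females 13 of them were tested, 8 positive and 5 negative with a median of 0.03, and none passed in the authors' deposited table. The lowest was A930015D03Rik, an antisense transcript, at -0.82 ± 0.30 (DESeq adjusted p = 0.348), and the highest was the member H2-T23 in the authors' deposited table. H2-T24, a class I gene close by, was at -0.34 ± 0.27, and H2-T10, on the other side of H2-Bl, at -0.02 ± 0.29 in the authors' deposited table. Medians of the tested neighbours were 0.09 in HCD-weaned males (13 genes), 0.23 in HCD-weaned females (14 genes) and -0.26 in RD-weaned males (11 genes), with none past the test in the authors' deposited tables. Among tested genes of this stretch, H2-Bl in RD-weaned females was the 1 gene past the test in the 4 comparisons. That value chose the set, so nothing is read from its contrast with the neighbours. Over all genes tested, 0.0851% to 1.52% passed in the 4 comparisons, and no call among so few neighbours is near that share. Without strand in the counting, reads of A930015D03Rik and of the class I genes that it overlaps cannot be told apart.

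**Figure D4:**
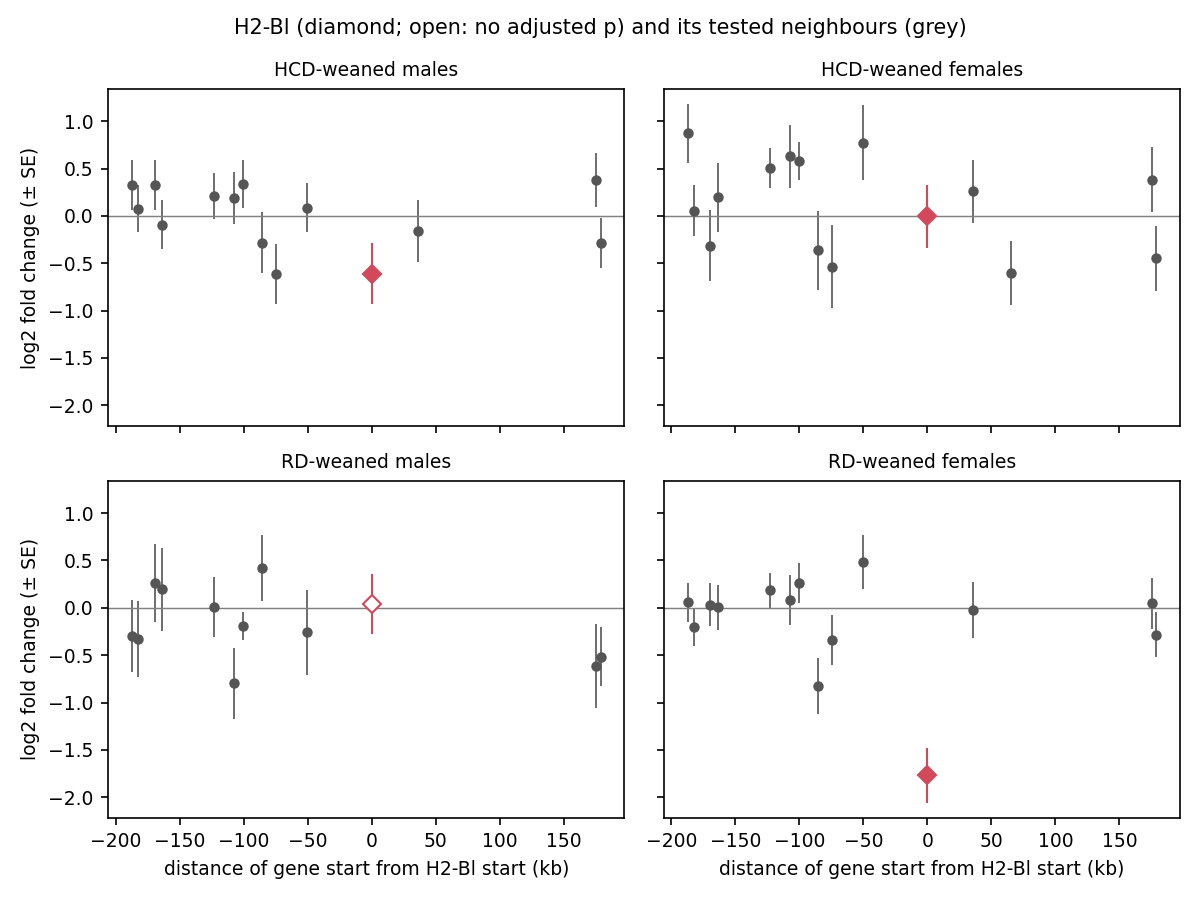
Log2 fold change (y axis; bars, ± 1 SE) of H2-Bl (red diamond; open where no adjusted p is listed) and of tested genes that start within 200 kb of it (grey), by distance of the gene start from that of H2-Bl in kb (x axis), 1 panel per comparison from the authors' deposited tables. In RD-weaned females H2-Bl at -1.77 lies below its 13 tested neighbours, whose values run from -0.82 to 0.49.

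Of the steps that supply and load peptides, the immunoproteasome subunit Psmb10 was the gene that passed. In HCD-weaned females it was 1.14 ± 0.30 higher on the log2 scale (DESeq adjusted p = 0.0231), per the authors' deposited table. Over all genes 1.52% of 15043 passed in that comparison, and 1 call among 13 genes is not read as a result about the list. The other 12 genes of that list (chaperones such as Tapbp, Calr and Canx, the proteasome subunits Psmb8 and Psmb9, the activators Psme1 to Psme3 and others) did not pass there: 10 of the 13 were positive, with a median of 0.27 in the authors' deposited table. Psmb8 was at 0.79 and Psmb9 at 0.30 beside it in the authors' deposited table. In HCD-weaned males Psmb8 (0.48 ± 0.28), Psmb9 (0.51 ± 0.31) and Psmb10 (0.48 ± 0.30) had like values, none past the test, with 9 of 13 genes positive and a median of 0.18 in the authors' deposited table. In RD-weaned males 2 of 11 tested genes were positive with a median of -0.26, and in RD-weaned females 3 of 13 with a median of -0.07, none past the test in the authors' deposited tables. Psmb9 lies beside Tap1 and shares part of its transcript, as given above.

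The remaining class I and class I-like genes gave no call. Of 30 genes on this list, 29 were in the tables, and 11, 10, 8 and 10 were tested in HCD-weaned males, HCD-weaned females, RD-weaned males and RD-weaned females, with 0 past the test in any of the authors' deposited tables. Over all genes tested, 0.163%, 1.52%, 0.0851% and 0.346% passed in that order, so 0 calls among so few genes is near that share. Medians of the list in that order were -0.16, 0.11, 0.12 and 0.01 in the authors' deposited tables. In HCD-weaned males the low end held H2-Q1 (-0.79 ± 0.30), H2-Q2 (-0.64 ± 0.32), the metabolite-presenting gene Mr1 (-0.61 ± 0.28) and H2-T24 (-0.61 ± 0.32), beside H2-Bl at -0.61, in the authors' deposited table. In RD-weaned females Procr (-0.43 ± 0.27), Mr1 (-0.42 ± 0.27) and H2-Q2 (-0.38 ± 0.25) were the most negative by test statistic, none past the test in the authors' deposited table.

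Regulators and interferon-responsive genes gave no call either. As 0.0851% to 1.52% of all tested genes passed in the 4 comparisons, 0 calls in each of these short lists is near that share. Of 23 regulators (21 tested in RD-weaned males), among them the class I transactivator Nlrc5, Irf1 and the Rfx and Nfy factors, 0 passed in any of the authors' deposited tables, with medians of 0.01, 0.05, -0.01 and 0.03 in the order above. Nlrc5 itself had mean normalized counts of 4.89 to 19.2 and log2 fold changes of -0.21 to 0.04 in the authors' deposited tables. Of 30 interferon-stimulated genes, 23 to 29 were tested and 0 passed, with medians of -0.18, 0.02, -0.07 and -0.07 in the authors' deposited tables. The genes with the largest statistics lay on both sides of 0. In HCD-weaned females they were Ifit2 (-0.87 ± 0.39), Ifitm3 (0.76 ± 0.40) and Gbp6 (-0.77 ± 0.41), none past the test in the authors' deposited table. In HCD-weaned males they were Ifitm3 (0.53 ± 0.26), Iigp1 (-0.56 ± 0.32) and Gbp7 (-0.54 ± 0.32), none past the test in the authors' deposited table. The class II genes, which present peptides to CD4 T cells, had 0 of 6 to 9 tested genes past the test and medians of -0.24, 0.12, -0.15 and 0.18 in the authors' deposited tables. Of receptors that read class I molecules, Cd8a, Klrk1, Klrd1 and Klrc1 had mean normalized counts under 10 in all 4, while Pirb, an inhibitory receptor of class I, was at 0.16 ± 0.32 in HCD-weaned males and at -0.22 ± 0.41 in the HCD-weaned females, per the authors' deposited tables. Cd8b1, singled out after its values were seen, had a mean of 31.8 in RD-weaned males, with no adjusted p, against 1.00 to 1.63 in the other 3 of the authors' deposited tables.

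**Figure D5:**
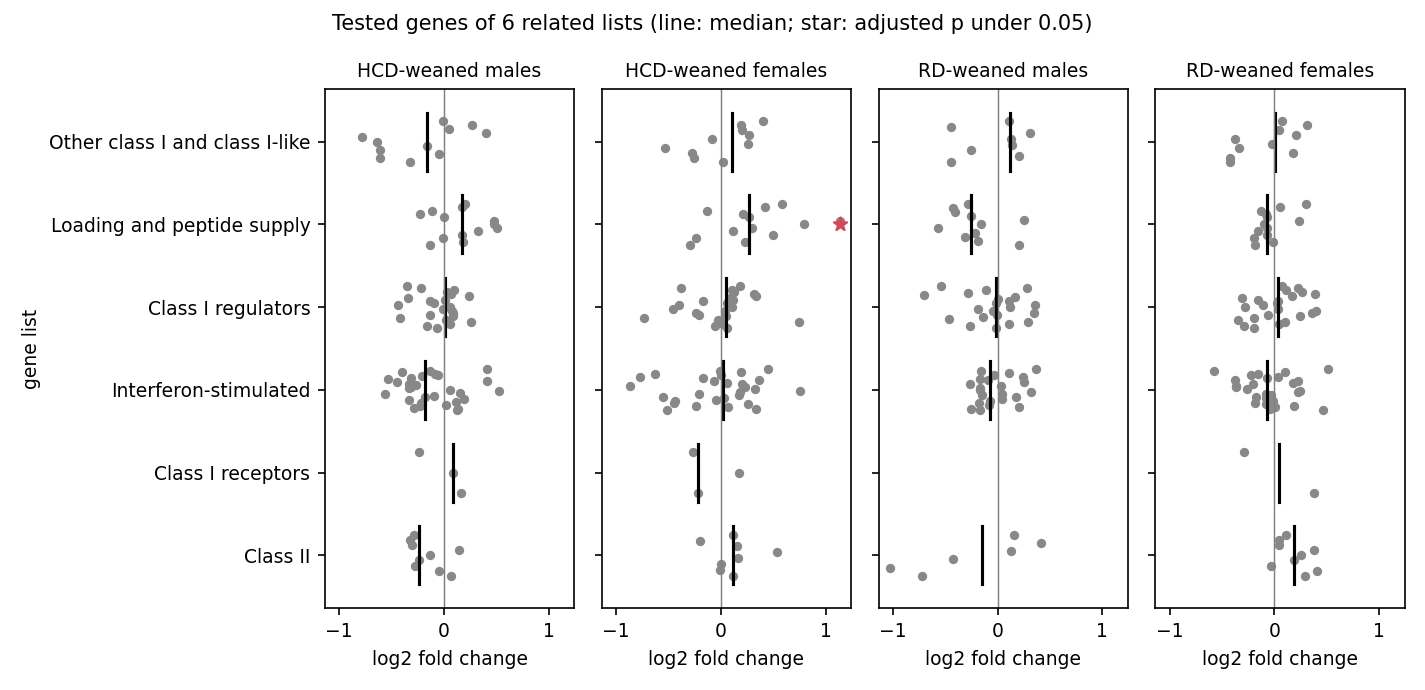
Log2 fold change (x axis) of the tested genes of 6 related lists (y axis; 1 grey point per gene, black line at the median, star where the adjusted p is under 0.05), 1 panel per comparison from the authors' deposited tables. The star is Psmb10 in HCD-weaned females at 1.14; no class I receptor was tested in RD-weaned males, and vertical placement within a list only separates points.

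Markers of the cells that could carry class I RNA were read beside these values. Summed in CPM, 10 microglial markers were at 771, 806, 629 and 807 and 10 endothelial markers at 497, 428, 457 and 472 in HCD-weaned males, HCD-weaned females, RD-weaned males and RD-weaned females, from the authors' deposited tables. In RD-weaned females all 10 microglial markers were positive (median 0.35) and 7 of 10 endothelial markers were (median 0.08), none past the test in the authors' deposited table. All 9 tested hypothalamic neuron markers were negative there, with a median of -0.30 and none past the test, per the authors' deposited table. Of the 6 choroid plexus markers 1 passed: Kl rose by 1.01 ± 0.23 (DESeq adjusted p = 0.00867), and 5 were positive with a median of 0.65 in the authors' deposited table. Over all genes 0.346% of 15028 passed in RD-weaned females, and nothing is read from the counts of calls in these short lists. The part of these cells in the -1.77 of H2-Bl was not tested. Ependymal markers had 1 of 5 positive with a median of -0.40, none past the test, in the authors' deposited table of RD-weaned females. T and B cells were scarce: Cd3e had mean normalized counts of 0.342 to 1.92 and Cd8a of 0.582 to 2.43, and the 10 lymphocyte markers summed to 10.6 to 18.6 CPM, mostly Cd4 and Ptprc, in the authors' deposited tables. Of 5 red cell markers, the globin genes Hba-a1, Hba-a2, Hbb-bs and Hbb-bt were listed at 0 while Alas2, the heme synthesis enzyme of red cells, had means of 100.4 to 190.2 in the authors' deposited tables. These globin genes have close copies of each other, so their 0 is not read as a level. The 5 neutrophil and monocyte markers summed to 1.48 to 6.90 CPM in the authors' deposited tables. Each table mean covers both diet groups, so a level per group is not given. Xist had means of 0.447 and 3.33 in the tables of males and of 3893 and 5611 in those of females, and Ddx3y, a Y-linked gene, was high in males alone, as labelled, in the authors' deposited tables.

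The promoter tables of RefSeq (GRCm38.p6; 250 bases before to 50 after each start) held entries for 8 of the 10 members, 9 in all. H2-Bl and Tap2 had none. Searches covered both strands for GGGGATT, the letters that open the kappa B site of the class I enhancer A, and for the interferon-stimulated response element, taken as GAAA, any 2 bases and GAAA again. The 2 searches did not overlap in these windows. GGGGATT was found in H2-K1 (at -111 and, counted from its other start, -125), H2-D1 (-171), H2-Q4 (-174), H2-Q7 (-133) and, on the opposite strand, H2-T22 (-180), counted from the start, and in 3.10% of 32851 promoters. The interferon letters, in this exact form, were found in B2m (-139) and, on the opposite strand, in H2-T22 (-191) and H2-T23 (-124), and in 3.44% of promoters. Tap1 had neither. Looser forms of the interferon element were not searched. A gene without a match, such as H2-K1 or H2-D1, may therefore still hold one. The 250 bases before the start are shown for H2-K1, the classical heavy chain with the highest level (chr17:34000348-34000597, minus strand), and for B2m (chr2:122147437-122147686, plus strand), as 1 example of each motif, which is in capitals.
H2-K1: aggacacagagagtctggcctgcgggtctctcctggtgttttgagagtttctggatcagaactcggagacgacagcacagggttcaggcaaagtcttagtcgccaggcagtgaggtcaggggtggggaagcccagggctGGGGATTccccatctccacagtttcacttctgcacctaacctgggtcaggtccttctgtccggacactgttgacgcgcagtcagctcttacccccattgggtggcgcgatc
B2m: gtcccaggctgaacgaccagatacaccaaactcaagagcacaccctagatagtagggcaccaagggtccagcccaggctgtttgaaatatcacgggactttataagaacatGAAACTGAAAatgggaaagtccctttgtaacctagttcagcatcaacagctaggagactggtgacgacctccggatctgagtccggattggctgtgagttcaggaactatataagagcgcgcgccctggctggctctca
The 5 genes with the kappa B letters include H2-K1 and H2-D1, at 0.67 and 0.90 in HCD-weaned females, H2-Q4 at -0.38, and 2 genes with no test, H2-Q7 (listed at 0) and H2-T22 (status Low), in the authors' deposited table. The 3 with the interferon letters were at 0.25 (B2m) and 0.77 (H2-T23), beside H2-T22, in the authors' deposited table of HCD-weaned females. A match describes letters in this window and shows no binding.

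The genes most like H2-Bl in pattern were picked by the distance between Wald statistics (fold change over SE) in the 3 tables that test H2-Bl, over 14569 genes. They were Gm4737, Itih3, Sytl4, Arhgap36 and Gpx3, at distances of 1.69, 1.78, 1.84, 1.98 and 1.98 from the authors' deposited tables. All 5 were lower in RD-weaned females, from -1.27 (Gpx3) to -1.33 (Arhgap36), against -1.77 for H2-Bl in the authors' deposited table. In HCD-weaned males they ran from -0.80 (Arhgap36) to -0.16 (Itih3), and in HCD-weaned females from -0.27 (Itih3) to -0.10 (Sytl4), in the authors' deposited tables. The likeness rests mainly on the comparison that chose H2-Bl and is a description without a test.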

How the data were processed

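The labels list 25 samples in 8 groups. Of 12 deposited files, the 4 tables of the authors' comparisons were used, 1 per sex and weaning diet. Per the submitters' processing notes, the tool was DESeq (no version listed) and the build mm10. No aligner, read counter or annotation is given in the sources used here. Per the file headers, the authors' tables hold a mean normalized count over both groups (a signal, at least 0). They also hold a log2 fold change and its standard error, per the file headers. Fold changes are smaller for weakly expressed genes (median size 0.047 to 0.115 at means under 10, against 0.153 to 0.292 at means of 100 or more), so folds of low genes may be understated. The Wald statistic, a score, was the fold change over its standard error in each deposited table. Redoing the Benjamini-Hochberg adjustment of each deposited p-value gave the authors' adjusted values. Genes with means under 10 have the status Low and no adjusted p. With the status OK, 1554 genes of RD-weaned males and 342 of RD-weaned females also lack one. The reason is not given in the sources used here, and extreme counts in single libraries were not checked, for H2-Bl or any other gene.

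In the other 8 files (counts, rlog) the names of all 48 library columns match no label, and none was used. Depth per sample is unknown for that reason, and depth per library column was not read. The comparison of RD-weaned males has 6 library columns per file where the labels list 7 samples. Count tests, leaving out of replicates and the replicate block, all planned, need mapped columns and were not run.

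Differences between comparisons were tested as the difference of log2 fold changes over the root of the summed squared standard errors, with a normal reference and Benjamini-Hochberg adjustment over all genes tested in both tables. This difference test was tried on simulated data with planted differences larger than that of any member here. Recovery of differences of the members' size was not tested. Alternatives were the minimum mean, the threshold, centring, the spread of the Wald statistics and the sign of the RD-weaned male table. Sequences and loci were read from GENCODE M21 and RefSeq (GRCm38). Exons were aligned with Biopython 1.88; other steps used Python 3.11.15, numpy 2.4.6, pandas 2.3.3 and scipy 1.17.1.

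The members and gene lists were chosen with earlier results of these data known. The text names all members, each list gene past an adjusted p of 0.05, genes among the 3 largest Wald statistics of a list and comparison, the 5 genes nearest to H2-Bl in Wald statistics, and neighbours within 200 kb. Tapbp, Canx, Nlrc5, Psme1 to Psme3, receptors with low means and markers named at or near 0 are named for their role.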

Additional observations from a re-analysis of the deposited data

How the results depend on the processing

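For single members, 181 alternative values kept the direction and the side of the threshold and 1 did not. That was H2-D1 in HCD-weaned females, which passed at an adjusted p under 0.10 (0.0711; range over the alternatives 0.0569 to 0.215), so that 1 member was called there instead of 0. With means of at least 100, 0 members were called in RD-weaned females, since H2-Bl was no longer among the genes tested. For all genes, an adjusted p under 0.10 gave 450 calls for HCD-weaned females (229 at 0.05), 23 for RD-weaned males (11) and 90 for RD-weaned females (52). A mean of at least 100 gave 16 calls in HCD-weaned males (25). Dividing Wald statistics by their robust spread (1.17, 1.12 and 0.847) gave 3 calls for HCD-weaned males, 56 for HCD-weaned females and 74 for RD-weaned males. Centring on the median moved the split in HCD-weaned females from 148 higher and 81 lower to 100 and 96. With the signs of the RD-weaned male table turned, 4 genes in place of 1 differed from HCD-weaned males and 30 in place of 1 from HCD-weaned females, and no member did in either (lowest adjusted p of a member 0.824 and 0.364). That turned the sign of the difference from HCD-weaned females for H2-Q4, and from HCD-weaned males for H2-Q4, H2-T23, H2-D1, B2m and Tap1. Of the other alternatives only centring could change the sign of a log2 fold change, and it did so for no tested member. Count tests with other tools, leaving out each replicate, and fits on mapped libraries were not run. No paired analysis was possible because the library columns carry no replicate numbers and match no label. Depth per sample is unknown, and the counting error behind H2-Bl, H2-T22 and H2-Q7 was not examined.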
